A study of Homo sapiens with 2 samples.

Results

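The miR-148 family, which includes miR-152, was examined in small RNA libraries of hCMEC/D3. This line was derived from endothelial cells of human brain microvessels, was immortalised with telomerase and the SV40 large T antigen, and serves to model the blood-brain barrier in culture. Family members were taken as every row of the deposited table whose precursor is hsa-mir-148a, hsa-mir-148b or hsa-mir-152. This gave 5 of 2363 rows: both arms of hsa-mir-148a, both arms of hsa-mir-148b, and 1 row for hsa-mir-152. The row of hsa-mir-152 is named miR-152 with no arm; that name was used earlier for the arm now called miR-152-3p, and it is kept here. The series holds 2 libraries of this line, replicate 2 and replicate 8 in the labels, and no second group. The labels give no treatment, passage or time in culture, and do not say that the replicates came from separate cultures, so the spread between them may be technical. Each comparison below is therefore between 2 libraries of 1 cell line, and its test holds counting error only.

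A microRNA (miRNA) is a short RNA cut from a hairpin precursor; 1 arm of the hairpin is usually loaded into the silencing complex, where bases 2 to 8, the seed, pair with target messages. The family is conserved among vertebrates. It is known for repressing the maintenance DNA methyltransferase DNMT1 and the non-classical HLA molecule HLA-G, and miR-148a is known in liver for repressing the LDL receptor and the cholesterol transporter ABCA1. None of these messages was measured in the files used here.

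The 3 3p arms are printed first because their shared seed defines the family and because they differ in so few bases. Sequences are from RefSeq (GRCh38.p14) and matched 4 of the 5 rows, miR-148a-5p being the exception; the seed is in capitals.
miR-148a-3p: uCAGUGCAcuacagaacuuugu
miR-148b-3p: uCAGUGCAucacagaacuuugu
miR-152: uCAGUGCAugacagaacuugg
miR-148b-5p: aAGUUCUGuuauacacucaggc

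All 3 3p arms have the seed CAGUGCA. Counted from the 5′ end, miR-148a-3p and miR-148b-3p were identical at 20 of 22 bases, and the differences were C9U and U10C, with the base of miR-148a-3p first. Against miR-152, miR-148a-3p differed by C9U, U10G and U20G over the 21 bases compared, and miR-148b-3p differed by C10G and U20G. The distinction between members thus rests on 2 or 3 bases per read, and the sources used here do not say how many mismatches were allowed when reads were assigned.

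The hairpins are printed to show where the counted arms lie; arms that have a row and a RefSeq sequence are in capitals.
MIR148A: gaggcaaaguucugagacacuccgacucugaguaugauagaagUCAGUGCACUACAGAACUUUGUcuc
MIR148B: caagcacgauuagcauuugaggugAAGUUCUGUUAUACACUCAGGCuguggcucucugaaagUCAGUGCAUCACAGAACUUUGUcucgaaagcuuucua
MIR152: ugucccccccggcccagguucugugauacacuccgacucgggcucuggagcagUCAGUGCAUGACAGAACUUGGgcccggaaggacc

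Each hairpin is a single locus in the GENCODE annotation on GRCh37, the assembly also called hg19, which the submitters' processing notes name. MIR148A lies on chromosome 7 at 25989539 to 25989606 (minus strand), in an intron of an unnamed lncRNA on the same strand, with miR-148a-3p at 25989542 to 25989563. MIR148B lies on chromosome 12 at 54731000 to 54731098 (plus strand), with the 5p arm at 54731024 to 54731045 and the 3p arm at 54731062 to 54731083. It is intronic in COPZ1, which encodes a zeta subunit of the coatomer coat of transport vesicles, and all 17 spanning COPZ1 transcripts lack an exon at this place. Another unnamed lncRNA on the same strand also spans MIR148B, with 1 spanning transcript that lacks an exon there. MIR152 lies on chromosome 17 at 46114527 to 46114613 (minus strand), with miR-152-3p at 46114540 to 46114560. It is intronic in COPZ2, the paralogous coatomer gene, and the 3 spanning transcripts also lack an exon there. The genome's bases at all 3 hairpins were identical to the RefSeq hairpins. A gene of the NFE2 family of leucine zipper transcription factors was the nearest protein-coding gene outside the host on 1 side of each hairpin: NFE2L3 at 202212 bases from MIR148A, NFE2 at 36201 bases from MIR148B and NFE2L1 at 11078 bases from MIR152. The nearest other annotated miRNA gene was 105740 bases away or farther in all 3 cases, so no member is part of a close hairpin cluster in this annotation.

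After repeated rows were reduced to 1 per mature name, the libraries held 2721287 counts (replicate 2) and 2727675 counts (replicate 8), and a count of 3 corresponds to 1.10 CPM (counts scaled to a common library sum) in either. They differed by more than counting noise, with a chi-square statistic of 60.5 per degree of freedom over 695 miRNAs, and were treated as 2 samples. The endothelial miR-126-3p had 297696 and 313837 counts. Molecular identifiers are not mentioned in the labels, and PCR copies of 1 molecule can therefore be counted more than once. Ligation efficiency differs between small RNAs, so levels of different arms are compared less safely than 1 arm between libraries.

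miR-152 was the most abundant member and had nearly the same count in both libraries. Replicate 2 held 2785 counts and replicate 8 held 2793, a level of 1024 ± 0.38 CPM (SD, n = 2), and ranked 85 and 86 among the 2042 mature names of the table. The log2 ratio of replicate 8 over replicate 2 was 0.00 (95% exact interval -0.08 to 0.08; exact binomial test with Benjamini-Hochberg adjustment over all 695 miRNAs tested, adjusted p = 1.0). It was 0.11 with DESeq2 size factors, where it passed the threshold (exact binomial adjusted p = 0.012), and just below 0 on the deposited RPM scale.

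miR-148b-3p was second, with 2110 counts in replicate 2 and 2274 in replicate 8, or 805 ± 41.2 CPM (SD, n = 2). Its ranks were 97 and 91. It was slightly higher in replicate 8, by 0.10 on the log2 scale (exact interval 0.02 to 0.19; exact binomial adjusted p = 0.0497), which lies at the edge of the 0.05 threshold. The call was lost on the deposited RPM scale (adjusted p = 0.074), with repeated rows summed (0.077) and with no filter on low counts (0.079). The count of miR-152 was 1.32 times that of miR-148b-3p in replicate 2 and 1.23 times in replicate 8, so the order of the pair was the same in both libraries, and their 95% Wilson intervals within each library did not overlap.

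miR-148a-3p differed most between the libraries among the 4 tested arms. The counts were 342 (replicate 2) and 47 (replicate 8), which are 126 CPM (95% Wilson interval 113 to 140) and 17.2 CPM (13.0 to 22.9). It was 7.23-fold higher in replicate 2 (exact interval 5.37 to 10.1), a log2 ratio of -2.85 (exact binomial adjusted p = 2.5e-55), and it ranked 195 in replicate 2 and 368 in replicate 8. The mean of 71.5 CPM carries an SD of 76.7 (n = 2) and describes neither library.

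The passenger arms were low. miR-148b-5p had 116 and 130 counts, or 42.6 and 47.7 CPM, and differed by 0.16 on the log2 scale (exact interval -0.21 to 0.53; exact binomial adjusted p = 0.58). miR-148a-5p had 1 and 2 counts, under the limit of 3 counts in both libraries, and entered no test. The order of miR-148a-3p and miR-148b-5p differed between the libraries: the former was higher in replicate 2 and the latter in replicate 8, and their Wilson intervals did not overlap in either.

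**Figure D1:**
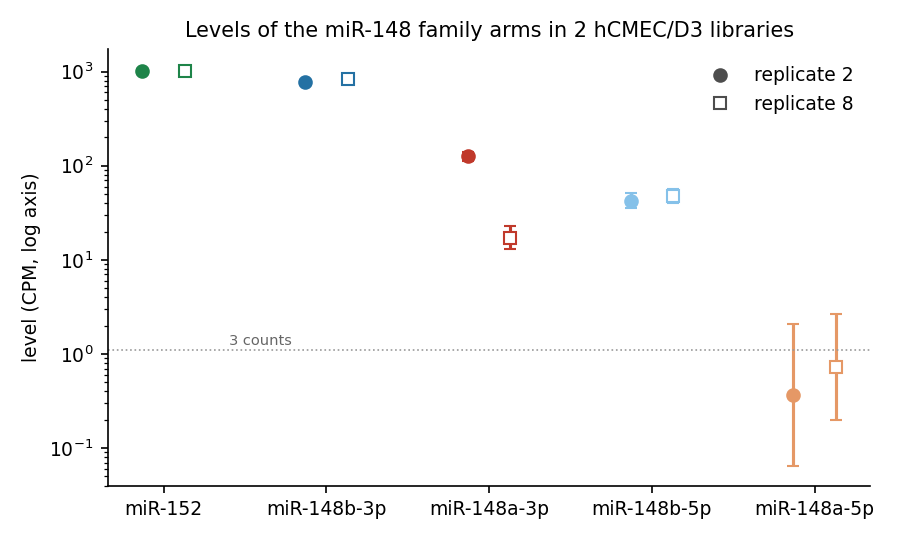
Level of each family arm in CPM on a log axis, with filled circles for replicate 2, open squares for replicate 8 and bars for the 95% Wilson interval (counting error only; hidden by the symbol where narrow); the dotted line is 3 counts. Of the 4 arms above that line, miR-148a-3p alone has well separated libraries, at 126 and 17.2 CPM, and it falls below miR-148b-5p in replicate 8.

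Of the 5 arms, 4 had the 10 summed counts needed for the test and 2 of these 4 were called, 1 lower and 1 higher in replicate 8. Of all miRNAs tested 34.2% were called, 23.5% lower and 10.8% higher, so the number of calls says little about the family. The size of the difference set miR-148a-3p apart. For the 367 miRNAs that reached 100 summed counts, the absolute log2 ratio had a median of 0.21, and 3.27% were more than 2-fold apart. miR-148a-3p had the third largest absolute log2 ratio of the 367, after miR-199a-5p at -3.73 and miR-10b-5p at -3.59. All of them had fewer than 100 counts in replicate 8 and entered the ranking through replicate 2, so their ranks are a description only. miRNAs with fewer summed counts were not ranked, although some had larger ratios, such as miR-214-3p at -3.24 (23 and 2 counts). miR-148b-5p, miR-148b-3p and miR-152 were at ranks 235, 280 and 366, below the median. The median log2 ratio of the 4 tested arms was 0.05, beside -0.11 over all 695 miRNAs tested.

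**Figure D2:**
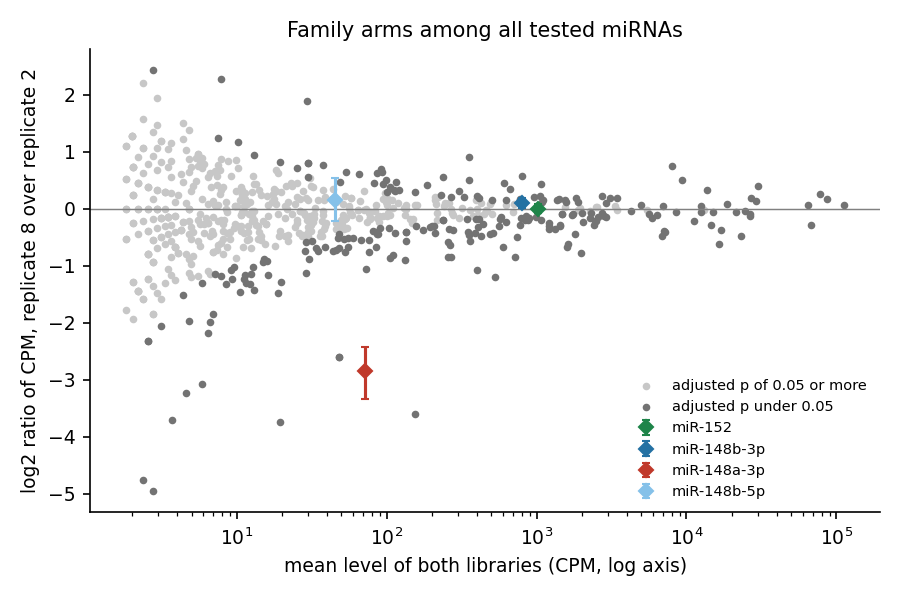
Log2 ratio of CPM (replicate 8 over replicate 2) against the mean level in CPM (log axis) for 695 miRNAs with at least 10 summed counts; dark grey points passed the exact binomial test, and coloured diamonds with 95% exact intervals are the 4 tested family arms. miR-148a-3p lies at -2.85, below most other points, and the remaining 3 arms lie between 0.00 and 0.16.

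The members were then set against each other, since library scaling cancels when 2 miRNAs are compared within the same libraries. Relative to miR-148b-3p, miR-148a-3p was 7.77-fold lower in replicate 8, a log2 ratio of ratios of -2.96 (95% exact interval -3.45 to -2.52; Fisher's exact test adjusted over all 93 pairs, adjusted p = 2.7e-56). Relative to miR-152 the value was -2.85 (-3.35 to -2.42; Fisher's exact adjusted p = 1.1e-52). Between miR-148b-3p and miR-152 it was 0.10 (-0.01 to 0.22; Fisher's exact adjusted p = 0.11), which leaves room for a difference of up to 0.22 log2 units. The 93 pairs are all those of miRNAs with a matched RefSeq sequence, the same bases 2 to 8 and different mature sequences. Each miRNA had at least 100 summed counts, and 59.1% of the pairs were called. A call in itself is therefore common among such pairs. By size, the pairs with miR-148a-3p were the first and second of the 93, and the pair of miR-148b-3p and miR-152 was at rank 69. miR-148a-3p reached 100 summed counts only through replicate 2, where it was high, so the first 2 ranks are a description only.

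These pairs form 36 groups with a common seed. The range of log2 ratios within a group had a median of 0.21, and 4 groups had a range of 0 because the table lists the same counts for their members. The range was 2.96 in the miR-148 group, the widest of the 36. The next was 1.01, between miR-200b-3p and miR-200c-3p, and no other group exceeded 1. The range of the miR-148 group rests on miR-148a-3p, which reached 100 summed counts only through replicate 2. A RefSeq sequence was found for 306 of the 367 miRNAs with at least 100 summed counts, so some groups are not represented or lack members. For example, miR-10a-5p and miR-10b-5p, whose names differ only in a letter, are in none of the 36 groups. Their log2 ratios were -0.90 and -3.59, farther apart than those of miR-200b-3p and miR-200c-3p. The order by range therefore holds among the 36 groups only.

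**Figure D3:**
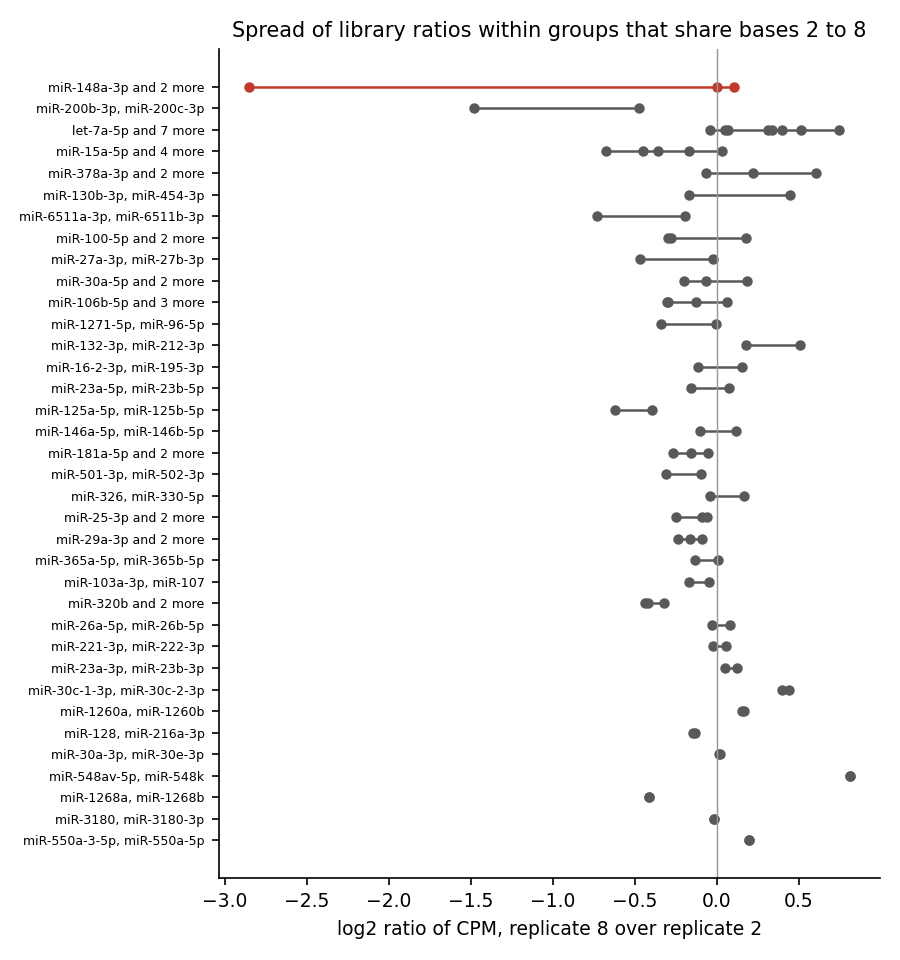
Log2 ratio of CPM (replicate 8 over replicate 2) of each member, joined by a line, for the 36 groups of miRNAs that share bases 2 to 8 and have at least 100 summed counts, sorted by their range; the label gives the first member or both. The miR-148 group (red) spans 2.96 log2 units, and the remaining groups shown span 1.01 or less. miRNAs without a matched RefSeq sequence are left out. miR-10a-5p and miR-10b-5p, at -0.90 and -3.59, are not among those shown.

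miR-148a-3p was a minor member in either library, and the summed level of the seed was close in both. The 3 3p arms summed to 5237 counts in replicate 2 and 5114 in replicate 8, or 0.192% (95% Wilson interval 0.187 to 0.198) and 0.187% (0.182 to 0.193) of all counts. The log2 ratio of the sums was -0.04 (95% exact interval -0.09 to 0.02) with scaling to the library sum. TMM-scaled library sizes and DESeq2 size factors raise every log2 ratio, by 0.09 and 0.11. The interval therefore holds for scaling to the library sum only. miR-152 made up 53.2% of the family's 3p counts in replicate 2 and 54.6% in replicate 8, miR-148b-3p 40.3% and 44.5%, and miR-148a-3p 6.53% (5.89 to 7.23) and 0.92% (0.69 to 1.22). Without miR-148a-3p the sums were 4895 and 5067 counts, and their log2 ratio with the same scaling was 0.05 (-0.01 to 0.10).

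Arm use could be compared for miR-148b. The 5p arm held 5.21% of both arms' counts in replicate 2 (95% Wilson interval 4.36 to 6.21, 2226 counts) and 5.41% in replicate 8 (4.57 to 6.38, 2404 counts). The difference was 0.20 percentage points (Fisher's exact test adjusted over 202 hairpins, adjusted p = 1.0), beside a median absolute difference of 0.66 points over those hairpins, of which 19.8% were called. In this hairpin the 3p arm was therefore the main arm in both libraries. For miR-148a the 5p arm held 1 of 343 counts in replicate 2 and 2 of 49 in replicate 8, which falls short of the 50 counts per library set for the test. With a minimum of 10 counts the 5p shares were 0.29% and 4.08% (Fisher's exact adjusted p = 0.21 over 279 hairpins, of which 15.4% were called). The difference of miR-148a was thus measured in its 3p arm, and the 5p arm had too few reads to show whether it followed. miR-152 has 1 row, so its arms were not compared.

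No other miRNA of the 1736 with a RefSeq sequence had CAGUGCA at bases 2 to 8. However, 5 had the same letters 1 base earlier, at bases 1 to 7. There they overlap the seed of the family of miR-130 and miR-301. The rest of the 2042 mature names had no sequence to search, so the 5 may not be the complete set. By its name miR-130a-3p belongs to that family, but it is not among the 5. It had 607 and 577 counts and a log2 ratio of -0.08 (interval -0.24 to 0.09). The most abundant of the 5 is printed to show the shift, with the shared letters in capitals.
miR-130b-3p: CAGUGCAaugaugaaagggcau

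miR-130b-3p had 1185 and 1053 counts, with a ratio of -0.17 on the log2 scale (interval -0.29 to -0.05; exact binomial adjusted p = 0.016), and with TMM-scaled library sizes the ratio was -0.09 (adjusted p = 0.31). miR-301b had 42 and 26 counts, miR-301a-3p had 12 and 4, and miR-3666 and miR-4295 had none, which allows up to 1.10 CPM. The log2 ratio was -0.68 (interval -1.46 to 0.04) for miR-301b and -1.48 (-3.68 to 0.13) for miR-301a-3p. No tested ratio was as far from 0 as the -2.85 of miR-148a-3p, but the interval of miR-301a-3p includes that value.

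The miRNAs with the nearest library ratios were sought where the summed count was 100 or more. With 2 libraries this likeness is a single number. Nearest to miR-148a-3p were miR-199a-3p and miR-199b-3p, at a distance of 0.25 log2 units; the table gives both the same 227 and 37 counts, so they are not separate measurements. The next was miR-10b-5p, at 0.74, with 777 and 64 counts. For miR-148b-3p they were miR-409-3p (1126 and 1213 counts), miR-122-5p (639 and 688) and miR-452-5p (7642 and 8267), all within 0.01. For miR-152 they were miR-361-5p (1089 and 1091 counts), miR-96-5p (59 and 59) and miR-1273g-3p (862 and 868), also within 0.01. Few miRNAs lay near miR-148a-3p, whereas the ratios of the other 2 arms were common.

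miRNAs known from other cell types were set beside the family, because some differed in the direction of miR-148a-3p. All 5 of a mural and fibroblast list were called lower in replicate 8 under each of the library scalings tried. Of all 695 miRNAs tested, 23.5% were called lower with scaling to the library sum. With TMM-scaled library sizes 224 of the 695 were called in either direction, 105 of them higher. The corresponding counts were 222 and 115 with DESeq2 size factors, and 239 and 73 on the deposited RPM scale. The summed level of the list was 963 CPM in replicate 2 and 410 CPM in replicate 8. In this list miR-143-3p, a smooth muscle miRNA, had 2000 and 871 counts, and miR-214-3p, which shares a transcript with miR-199a, had 23 and 2. The list also holds both arms of miR-199a, so its 5 members are not independent. Of 8 epithelial miRNAs 7 were tested and 4 called lower under each scaling, with sums of 142 and 89.8 CPM. The same 23.5% over all miRNAs, with scaling to the library sum, and the counts given for the other scalings stand beside this count. The 4 were miR-200a-3p (29 and 3 counts), miR-200b-3p (76 and 27), miR-429 (13 and 0) and miR-205-5p (15 and 0), whereas the most abundant, miR-200c-3p, had 118 and 85 counts, miR-375 had 106 and 98 and miR-203a had 30 and 32, none of them called. miR-141-3p had no count in either library. In both lists some members reached the 10 summed counts only through replicate 2 (miR-199a-5p, miR-214-3p, miR-200a-3p, miR-429 and miR-205-5p), which fixes their direction, so these counts are a description only.

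Of 6 blood miRNAs the 3 with counts, miR-451a, miR-486-5p and miR-150-5p, were called lower, again beside 23.5% of all miRNAs tested, with sums of 553 and 399 CPM. With DESeq2 size factors miR-150-5p was no longer called. The other 3, miR-142-3p, miR-144-3p and miR-223-3p, were at 0 in both libraries. The 3 liver miRNAs summed to 666 and 717 CPM and none was called, beside 34.2% of all miRNAs tested that were called in either direction. However, miR-192-5p was called higher with TMM or DESeq2 scaling, and miR-122-5p with DESeq2 scaling. Of all 695 miRNAs tested, 105 were called higher with TMM scaling and 115 with DESeq2 scaling. Of 2 neuronal and 3 muscle miRNAs, 1 and 2 were tested and none was called, beside the same 34.2%. With repeated rows summed, miR-9-5p was called lower. The sums were 44.1 and 34.1 CPM for the neuronal and 12.1 and 9.17 CPM for the muscle miRNAs. The 4 endothelial miRNAs summed to 135700 and 141616 CPM. Of these, miR-126-3p and miR-222-3p were called higher in replicate 8, beside 10.8% of all 695 miRNAs tested. miR-221-3p was called higher with TMM or DESeq2 scaling and lower on the deposited RPM scale and with repeated rows summed. Whether RNA of other cells had a part in the difference of miR-148a-3p was not tested.

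**Figure D4:**
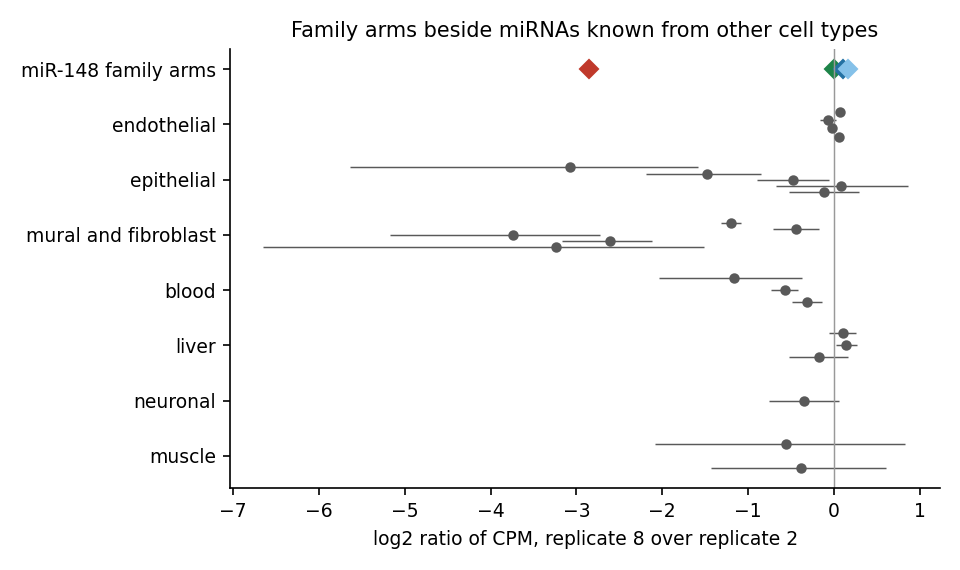
Log2 ratio of CPM (replicate 8 over replicate 2) of the 4 tested family arms (diamonds, coloured as in the plot of levels) and of listed miRNAs of other cell types (grey points, 95% exact intervals); miRNAs with a count of 0 in a library are left out. miR-148a-3p, at -2.85, lies within the range of the mural and fibroblast list, from -3.73 to -0.44. It also lies within that of the plotted epithelial miRNAs, from -3.08 to 0.09. The members below it (miR-199a-5p, miR-214-3p and miR-200a-3p) reached 10 summed counts only through replicate 2, which fixes their direction. Without them these lists reach -2.60 and -1.48, so its place is a description only. The other arms lie near 0 with the endothelial and liver miRNAs.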

How the data were processed

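Small RNA of hCMEC/D3 cells was sequenced in 2 libraries from total RNA, with adaptors ligated to both ends, PCR and gel selection of the miRNA fraction, per the labels' protocols. The authors deposited, per the file headers, raw read counts and RPM for each mature miRNA and precursor. The RPM values equal the deposited counts divided by 1 constant per library (3180045 and 3205752). The submitters' processing notes name CASAVA 1.9, FastQC, cutadapt, Bowtie 0.12.7 and hg19; the counter and miRBase release are not given in the sources used here.

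Where a mature name has several rows, the one with most reads was kept; each family arm has 1 row. Log2 ratios used 0.5 added counts. Libraries were compared by two-sided exact binomial tests on miRNAs with at least 10 summed counts, and pairs and arms by two-sided Fisher's exact tests, all with Benjamini-Hochberg adjustment over the whole table (scipy 1.17.1, statsmodels 0.14.6). With 1 group there was no quasi-likelihood test between conditions; edgeR 4.0.16 gave TMM sizes and DESeq2 1.42.0 size factors as alternatives, beside the RPM scale, summed rows, other filters and pseudocounts, and leaving out each library. Intervals cover counting error only.

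Named miRNAs are the family rows, the 3 nearest in library ratio to each 3p arm, names sharing the seed letters, and cell type lists; miRNAs with larger ratios than miR-148a-3p, the groups singled out by range, and names with the seed letters 1 base earlier were chosen after their values were seen. The family and the lists were chosen with earlier results of these data known. RefSeq names without an arm were matched only where the hairpin has a single mature entry, except miR-152.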

Additional observations from a re-analysis of the deposited data

How the results depend on the processing

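Over 15 results, 59 values were recomputed. Of these, 12 leave out a library, and of the other 47, 33 kept their direction and side of the threshold, stayed within 1 SD or, for the number of arms called, within 1.5 times. TMM and DESeq2 scaling raise every log2 ratio and shift the median over all miRNAs by 0.09 and 0.11. The log2 ratio of miR-148a-3p ranged from -2.86 to -2.74 over its alternatives, and its differences from miR-148b-3p and miR-152 do not depend on scaling. For miR-148b-3p the call was lost on the deposited RPM scale (log2 ratio 0.10, exact binomial adjusted p = 0.074), with repeated rows summed (0.10, adjusted p = 0.077) and with no filter on low counts (0.10, adjusted p = 0.079); over its alternatives the adjusted p ranged from 4.1e-06 to 0.079. For miR-152 the ratio was called with DESeq2 size factors (0.11, adjusted p = 0.012) and changed sign on the RPM scale (-0.0075) and with repeated rows summed (-0.0085), both near 0. The number of arms called was accordingly 3 with DESeq2 size factors, beside 222 of all 695 miRNAs tested. It was 1 with repeated rows summed, beside 252 of 715, and 1 with no filter, beside 224 of 1134. The main setting gave 2, beside 238 of 695.

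The summed 3p share of 0.190% became 0.163% with repeated rows summed, 0.162% on the RPM scale and 0.214% when miR-126-3p was left out of the total. On the RPM scale the levels were 873.5 for miR-152, 686.4 for miR-148b-3p and 38.5 for miR-148b-5p. These shifts follow from the denominators. Leaving out a library gave 17.2 to 126 CPM for miR-148a-3p, 775 to 834 for miR-148b-3p, 1023 to 1024 for miR-152, 42.6 to 47.7 for miR-148b-5p and 0.37 to 0.73 for miR-148a-5p, and shares of 0.187% to 0.192%. With 2 libraries such a change always stays within 1 SD, so it shows nothing about stability. The pairs with miR-148a-3p had no value at 500 summed counts, and miR-148b-5p kept its uncalled state in all alternatives. No paired analysis was possible because there is 1 group. Depth limits miR-148a-5p, with at most 2 counts in a library.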
